A study of Drosophila melanogaster with 18 samples.

Results

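A set of 138 array probes was chosen by their response to depletion of the histone variant H2Av in *Drosophila* S2R+ cells, a hemocyte-like line derived from embryos. Each probe had group means on the authors' log2 scale that were at least 1 lower in H2Av RNAi than in lacZ RNAi at 14, at 25 and at 30 °C, and each was well above background on all 9 lacZ arrays. Of the 32162 probes on the array, 16732 met the second condition and 145 of these met both. The 7 probes of *His2Av*, *St1*, *Obp19c*, *CG6495* and *Rcd-1r* were left out. Of the 138 members, 119 carried the symbol of 1 of 106 genes and 19 had no symbol. H2Av RNAi stands for cells treated with *His2Av* double-stranded RNA at 25 °C. The control, lacZ RNAi, was treated in the same way with *lacZ*, a bacterial gene that the fly lacks. After the treatment the cells spent 24 h at 14, 25 or 30 °C. Total RNA was hybridised to one-colour Agilent arrays, with 3 replicates in each of the 6 groups. All groups were of the same cell line and differed in the double-stranded RNA and the temperature. Because the members were chosen by the difference between H2Av and lacZ RNAi, that difference is described below without a test.

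H2Av is the only variant of histone H2A of its kind in the fly and unites the roles that H2A.Z and H2A.X have in mammals. As H2A.Z it is built into nucleosomes near the start sites of transcribed genes, and as H2A.X it is phosphorylated at DNA breaks. It has been linked to both activation and silencing of genes. In cell lines it is commonly depleted with double-stranded RNA, which the cells take up from the medium.

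Signals are given as log2 of the background-subtracted intensity after quantile normalization. Differences between groups are differences of these log2 values, so that -1 is a signal of 50% on the linear scale. Brightness depends on the probe, so levels are compared within a probe. Both *His2Av* probes were lower in H2Av RNAi at each temperature, by -3.14, -3.07 and -3.95 for one and by -4.43, -4.86 and -6.01 for the other at 14, 25 and 30 °C. All 12 plasmatocyte markers with a probe were well above background on all 9 lacZ arrays, and their summed signal lay between 16.2 and 17.0 in lacZ RNAi and between 16.4 and 17.0 in H2Av RNAi. The brightest was *crq*, with a mean lacZ signal of 15.67, while *NimC1* had 5.91. None of the 5 follicle cell markers was well above background on all 9 lacZ arrays. However, 5 of 6 neuron, 5 of 5 germline and 4 of 7 muscle markers were. So were 2 of 3 crystal cell, 4 of 5 lamellocyte and 2 of 9 fat body markers. A signal well above background therefore does not mark a cell type here. Replicate 1 of lacZ RNAi at 25 °C stood apart. Its 20 probes for mitochondrial transcripts were below those of the 2 other replicates by a median of -2.05, whereas this median lay between -0.39 and 0.43 on the arrays of the other groups. Without it, the differences of single members at 25 °C shifted by -0.53 to 0.58, with a median shift of 0.14, and 104 of the 138 became smaller. No slide held more than 1 group, and the effects of slide and group cannot be told apart.

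The members lost most of their signal in H2Av RNAi. Their median difference was -1.63 at 14 °C, -2.13 at 25 °C and -1.99 at 30 °C, which corresponds to 32.2%, 22.8% and 25.2% of the lacZ signal. Over all 16732 probes well above background on the lacZ arrays the same medians were -0.03, 0.00 and 0.01. The median SD of the members over 3 replicates ranged from 0.19 to 0.35 in the lacZ groups and from 0.18 to 0.32 in the H2Av groups. On the authors' scale, on which the choice was made, 1.45% of the 16732 probes had a difference of -1 or less at 14 °C, 5.68% at 25 °C (3.57% without lacZ RNAi 25 °C replicate 1), 3.10% at 30 °C and 0.867% at each of the temperatures. The members nearest to the threshold were *HPS1* (-1.003 at 30 °C), *FIG4* (-1.01 at 14 °C) and *Tcs5* (-1.015 at 14 °C). The nearest probes outside it were those of *Wdr59* (-0.998 at 30 °C), *aub* (-0.997 at 14 °C) and *Mnat9* (-0.996 at 14 °C).

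The 3 H2Av arrays all lay below the 3 lacZ arrays in 138 members at 14 °C, 137 at 25 °C and 136 at 30 °C. The share among the 16732 probes was 20.1%, 26.9% and 19.3%, and nothing is read from these counts, since the rule used the same arrays. At each of the temperatures this held for 135 members, against 8.40% of the 16732 probes. The exceptions were 1 probe each of *CG6569*, *CG10132* and *CG14095*. The difference was largest at 25 °C in 81 members and at 30 °C in 49, and in only 8 members at 14 °C. It was smallest at 14 °C in 96 members. Without lacZ RNAi 25 °C replicate 1, the counts for 25, 30 and 14 °C were 69, 62 and 7, and the median difference at 25 °C was -2.05.

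With the processed signal, the largest differences belonged to *CG15142*, *Obp19d* and *HDAC11*, whose H2Av signals were at or near background. This order depends on the values used. On the authors' scale their differences at 14, 25 and 30 °C were -1.51, -3.03 and -2.34 for *CG15142*, -1.96, -2.22 and -1.92 for *Obp19d*, and -2.13, -2.51 and -2.02 for *HDAC11*, against -2.57, -3.37 and -3.53 for *Hexo1*. *Obp19d* encodes an odorant-binding protein, a small secreted carrier of hydrophobic ligands. On the lacZ arrays it had 8.26, 7.65 and 8.16 at 14 °C, then 9.08, 7.46 and 7.65 at 25 °C, then 7.64, 8.14 and 7.41 at 30 °C. On the H2Av arrays it had 3.47, 4.54 and 4.66, then 2.96, 3.26 and 3.84, then 2.88, 3.22 and 3.08. The H2Av values were below all lacZ values and near the detection limit, which 2, 1 and 1 of the 3 arrays exceeded.

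*HDAC11*, a histone deacetylase of the class with a single member in animals, had lacZ signals from 7.40 to 9.31 and H2Av signals from 2.60 to 5.94. At 30 °C no H2Av array was well above background for it. With a floor set by the lowest signal among probes well above background on each array, the lacZ signal was 25.1-fold higher. This is not a firm lower limit. At 14 °C, H2Av signals of 4.54, 5.94 and 4.32 gave only 1 array well above background for this probe. The ratio belongs to the background-subtracted signal, and the authors' values gave -2.02 at this temperature on the log2 scale. *CG15142* was also not well above background on any H2Av array at 30 °C. There the lacZ signal was 33.2-fold higher by the same signal, likewise no firm limit, against -2.34 on the authors' log2 scale. These were the only 2 cases in which no array of a group was well above background for a member. Of the 138 members, 134 were well above background on all 9 H2Av arrays too, so that the lower signal was measured rather than lost.

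*Hexo1*, which encodes a beta-N-acetylhexosaminidase, had the brightest spots of all members and was still among the 10 with the largest mean difference. On the lacZ arrays it had 15.25, 15.01 and 15.09 at 14 °C, then 15.71, 15.26 and 15.05 at 25 °C, then 14.63, 15.01 and 14.78 at 30 °C. Its H2Av signals were 12.32, 12.70 and 12.63, then 11.89, 12.36 and 11.72, then 10.84, 11.16 and 11.67. The difference thus left 16.9%, 9.82% and 8.33% of the control signal at 14, 25 and 30 °C. Among the 10 members with a symbol and the largest difference were also *CG3788* with both of its probes, *Ptth*, *Mthfs*, *CG11899* and *CG6345*, whose differences lay between -2.13 and -3.83. Probes without a symbol, of the sequence records BT022475, BI568543 and GM02605, ranked among them, with a mean difference over the temperatures of -3.17, -3.06 and -2.90.

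Across the members, the lacZ signal averaged over 9 arrays ranged from 7.67 to 15.1, with a median of 10.9 beside 11.1 for the 16732 probes. With these probes ordered by brightness and cut into 4 equal parts, 5 members fell in the dimmest part, 69 and 51 in the middle parts and 13 in the brightest. The 10 members with a symbol and the brightest spots were the probes of *Hexo1*, *png*, *CG9471*, *CG31937*, *CG13369*, *CG5167*, *mEFTu2*, *Marc*, *MED20* and *PPO3*, and the unnamed probes of BT021233 and BT023016, at 13.7 and 13.6, lay between *Marc* and *MED20*. For the named members the differences ranged from -1.14 for *MED20* at 30 °C to -3.59 for *Hexo1* at 30 °C.

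Both known ligands of the receptor tyrosine kinase Torso were members. Torso patterns the ends of the embryo when activated by the product of *trk*, and in the prothoracic gland it responds to *Ptth*, the prothoracicotropic hormone that starts ecdysone production. These genes and the groups in the next paragraphs were put together after the values were seen. *Ptth* had 8.76, 8.65 and 8.93 in lacZ RNAi at 14 °C and 5.78, 5.89 and 6.37 in H2Av RNAi. At 25 °C it had 10.52, 9.32 and 9.50 against 6.60, 6.63 and 6.39, and at 30 °C 9.80, 9.35 and 9.89 against 6.10, 6.93 and 6.75. No H2Av array reached a lacZ array, and between 10.6% and 14.7% of the control signal was left.

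The 2 probes of *trk* gave nearly the same values. The first had 11.76, 11.62 and 11.54 in lacZ RNAi at 14 °C, then 11.79, 11.23 and 11.56 at 25 °C, then 10.91, 10.87 and 10.63 at 30 °C. In H2Av RNAi it had 9.25, 9.88 and 9.67, then 8.60, 8.86 and 8.79, then 7.42, 7.66 and 8.23. The groups did not overlap at any temperature, and the difference went from -2.04 at 14 °C to -3.03 at 30 °C. The receptor gene *tor* itself was dim. Its brighter probe was well above background on 7 of the 9 lacZ arrays, and its mean signal was 4.16, 4.67 and 5.28 at 14, 25 and 30 °C in lacZ RNAi, while H2Av RNAi gave 5.23, 5.63 and 6.49.

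Genes known for the egg and early embryo also appeared. *png* encodes the kinase that switches translation at egg activation, and *fs(1)Ya* a nuclear envelope protein needed for the first embryonic mitoses. The differences of *png* were -1.95, -3.29 and -2.66 at 14, 25 and 30 °C, and those of *fs(1)Ya* were -1.96, -2.74 and -2.16. The gene of the partner protein *plu* was not a member, with differences of 0.67, -0.19 and -0.26. Germline markers moved in different directions beside them. *aub* lay just outside the threshold, while *vas* was higher in H2Av RNAi by 2.31, 2.59 and 2.74 and *piwi* by 1.30, 1.65 and 3.03. *osk* was higher too, by 1.78, 2.40 and 1.56, and *bam* had 0.06, -0.10 and 0.14. The summed signal of the 5 germline markers with a probe was 13.4 to 14.0 in lacZ RNAi and 12.5 to 13.3 in H2Av RNAi. However, *aub*, with a mean lacZ signal of 13.6, makes up most of this sum. The median difference was 0.68, 0.78 and 0.85 over the 4 germline probes with every spot well above background on all 9 lacZ arrays. This condition is stricter than that of the marker counts, which all 5 markers met. The part of these markers in the result was not tested.

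*Elba2* and *insv* encode related proteins with a BEN domain that bind DNA at insulators. *Elba2* was lower by -1.86, -2.52 and -2.02 and *insv* by -1.31, -1.91 and -1.39. Of the other subunits of the Elba complex, the probe of *Elba3* had 13.2, 13.2 and 13.3 in lacZ RNAi and differences of 0.06, -0.06 and 0.04, and that of *Elba1* was well above background on no lacZ array. *IFT43* and *Oseg1* encode subunits of the particle that carries proteins back along cilia. Their differences ranged from -2.23 to -2.78 and from -1.51 to -2.09. *Nek2*, a kinase of the centrosome, was lower by -2.56, -2.51 and -1.90.

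Several members encode enzymes that make or recycle cofactors. *Mthfs* returns 5-formyltetrahydrofolate to the folate pool, and its difference was -2.79, -2.89 and -2.85. These values were similar at the 3 temperatures. *Pdxk*, the pyridoxal kinase, had -1.71 at 14 °C and -2.74 and -2.76 at 25 and 30 °C, and the genes were not compared by a test. *Sptr*, sepiapterin reductase of tetrahydrobiopterin synthesis, had -1.67, -2.42 and -2.47. *Coq3*, a methyltransferase of ubiquinone synthesis, had -1.39, -1.501 and -2.04, and *Mtap*, which salvages methylthioadenosine, had -1.15, -1.34 and -1.29. Mitochondrial translation was represented by *mEFTu2*, an elongation factor, with differences between -1.36 and -1.73 over 2 probes, and by *GluRS-m*, the mitochondrial glutamyl-tRNA synthetase, with -1.54, -1.86 and -1.67.

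A further group acts on RNA or its transcription. *IntS9* encodes a subunit of Integrator, which cleaves nascent RNA, and its 2 probes had differences between -1.19 and -1.38. *MED20* of the Mediator had -1.36, -1.20 and -1.14. *Pbp45* belongs to the complex that starts transcription of small nuclear RNA genes and had -1.27, -2.30 and -1.40. *Elp6* of the Elongator and *Tcs5* of the KEOPS complex both serve modification of transfer RNA, and their differences lay between -0.93 and -1.59. *Smug* and *Ude* encode proteins that act on uracil in DNA, and *Ercc1* a subunit of a repair nuclease. Their differences were -1.76, -2.29 and -2.33 for *Smug*, -1.11, -1.25 and -1.90 for *Ude*, and between -1.17 and -1.41 for the 2 probes of *Ercc1*.

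Of 49 gene lists set up for this cell line, 11 held a member, and 13 genes with 14 member probes were on a list at all. The share of the 16732 probes on any list was not counted, so these counts are only a description. The list of glutathione S-transferases, enzymes of detoxification, held 3 member probes among its 42 well above background on all 9 lacZ arrays (7.14%). These were 2 probes of *GstS1* and 1 of *GstE13*, so 2 of the 31 genes with such a probe. The list as a whole was not lower in H2Av RNAi. The median difference over its 42 probes was 0.36, 0.29 and 0.32 at 14, 25 and 30 °C. The list of serpins and serine proteases held 2 of 29 (6.90%), the serpin *Spn77Ba* and *SP1029*. The latter encodes an aminopeptidase and is neither, so the share overstates the class. The median difference over the 29 probes was -0.04, -0.28 and 0.0. Single members were *PPO3*, the prophenoloxidase of lamellocytes, *Cyp6a22* of the cytochromes P450, *fz4*, a Wnt receptor, *mth*, a G protein-coupled receptor linked to life span, *Lsd-1*, the lipid droplet protein perilipin, and *Hexo1*, *Obp19d*, *MED20* and *GluRS-m* as described. The background for such a share is the 0.867% of all 16732 probes that met the thresholds. It includes the 7 probes of the genes left out, which the member counts of the lists do not.

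Lamellocyte markers other than *PPO3* differed in both directions. *PPO3* had 13.30, 13.45 and 13.43 in lacZ RNAi at 14 °C and 11.10, 11.92 and 11.75 in H2Av RNAi, and its differences were -1.80, -2.04 and -2.10. The summed signal of the 5 lamellocyte markers lay between 15.1 and 16.2 in lacZ RNAi and between 14.8 and 16.2 in H2Av RNAi, and the median difference over the 6 probes of the list well above background on all 9 lacZ arrays was -0.58, -0.09 and -0.28. The integrin gene *ItgaPS4* had -1.19, -0.91 and -0.48, whereas *atilla*, well above background on 7 of the 9 lacZ arrays, had 2.16, 1.22 and 2.07. The other 38 lists held no member, and by the rule *His2Av* could not count in any of them. Among them were sequence-specific transcription factors (229 probes), the cytoplasmic ribosome (170), vesicle traffic (163), actin and small GTPase regulators (137) and oxidative phosphorylation (120). The mitochondrial ribosome (82), DNA damage and repair (43), the complexes that exchange or acetylate H2Av (35) and histones (23) were also among them. The 14 process lists of the study for this array type, from S phase to the peroxisome, held no member among their 737 probes well above background on all 9 lacZ arrays. Of the 106 genes, 56 were known by a number alone. The share among all measured genes was not counted, so nothing is read from it.

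For 13 genes, 2 probes were members, namely *CG14628*, *CG3397*, *CG3788*, *CG5335*, *CG6569*, *CG7386*, *CG8349*, *Ercc1*, *GstS1*, *IntS9*, *hoe2*, *mEFTu2* and *trk*. Probes of the same gene are not independent samples of a condition. For 11 member genes, 12 further probes were well above background on all 9 lacZ arrays and missed the threshold at 1 or more temperatures. On the authors' scale each of the 12 was below 0 at every temperature, with medians of -0.93, -1.42 and -1.30, and 8 were at -1 or less at 2 or more temperatures. The additional probe of *CG7384* depended most on the values used. It had -0.83, -0.49 and -0.44 on the authors' scale and -3.01, -2.005 and -2.15 with the processed signal.

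In the order of protein-coding genes along the chromosomes, 104 of the 106 genes could be placed. Of these, 10 lay directly beside another member (9.62%), whereas 156 of 7937 other measured genes lay beside a member (1.97%). The 5 adjacent pairs were *insv* and *Elba2*, *CG4594* and *CG4592*, *Coq3* and *Pld3*, *CG32301* and *CG32305*, and *CG13634* and *Ude*. *Obp19d* adjoined *Obp19c*, which had been left out. In *Coq3* and *Pld3*, a member of the phospholipase D family, the difference was largest at 30 °C in both, with -2.04 and -2.60, and in *insv* and *Elba2* at 25 °C in both. Whether neighbours of like sequence share signal on the array was not tested. The 156 genes next to a member had median differences of -0.19, -0.35 and -0.08 at 14, 25 and 30 °C, beside -0.06, -0.16 and -0.02 for all 7937, and 1.28%, 10.3% and 3.21% of them were at -1 or less, beside 2.00%, 9.37% and 3.83%. Without lacZ RNAi 25 °C replicate 1, the values at 25 °C were medians of -0.23 and -0.11 and shares of 7.05% and 5.62%. By chromosome arm, 28 of 1443 measured genes on 2L were members (1.94%), between 1.08% and 1.33% on X, 2R, 3L and 3R, and none of 67 on the fourth chromosome.

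Temperature effects within each RNAi group were tested. The rule had not used these changes, but it had used the group means that make them up. The choice of members can therefore itself shift their changes, and their shares beside those of the 16732 probes are only a description. The adjusted p of a member does not allow for this choice. A probe was called if it changed by at least 2-fold at an adjusted p under 0.05 in limma, fitted over 21775 probes on all 18 arrays. Between 14 and 30 °C in lacZ RNAi, 15 members were higher at 14 °C (10.9%, beside 8.18% of the 16732 probes) and 13 were lower (9.42%, beside 9.32%). In H2Av RNAi, 36 members were higher at 14 °C (26.1%, beside 10.1%) and 9 were lower (6.52%, beside 11.4%). The median change of the members from 30 to 14 °C was 0.15 with lacZ and 0.54 with H2Av double-stranded RNA, beside -0.02 and -0.04 for the 16732 probes. The number called in H2Av RNAi stayed between 42 and 52 when any 1 array of the compared groups was left out, and in lacZ RNAi between 23 and 32.

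Against 25 °C, the members in lacZ RNAi were mostly lower at both other temperatures. A high lacZ signal at 25 °C helped a probe to meet the rule, as did one at 14 or 30 °C. How far the choice shifted these changes was not tested. At 14 °C, 21 were lower (15.2%, beside 6.77%) and 1 was higher (0.725%, beside 4.89%). At 30 °C, 20 were lower (14.5%, beside 4.03%) and none was higher (beside 3.81%). In either direction, 69 members had an unadjusted p under 0.05. The share over the 16732 probes was not counted, so nothing is read from this number. The counts of calls leaned on single arrays. Without lacZ RNAi 25 °C replicate 1, 11 were called at 14 °C and 13 at 30 °C, all lower, beside 4.64% and 3.10% of the 16732 probes, and with the compared arrays alone 13 and 0. The count at 30 °C was 12 without replicate 3 of 25 °C, 7, 33 and 8 without replicates 1, 2 and 3 of 30 °C. In the H2Av groups, cooling from 25 to 14 °C raised 5 members and lowered 1 (3.62% and 0.725%, beside 2.93% and 3.13%), and warming from 25 to 30 °C raised 5 and lowered 11 (3.62% and 7.97%, beside 2.85% and 3.09%).

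The changes from 30 to 14 °C went the same way in lacZ and H2Av RNAi for 114 of the 138 members (82.6%, beside 82.2% of the 16732 probes). These changes came from separate arrays. Across the 138 members their Pearson correlation was 0.81 and Spearman's 0.77, beside 0.854 and 0.825 over the 16732 probes. This is a description over probes that are not independent. Of 28 members called in lacZ RNAi and 45 in H2Av RNAi, 17 were called in both, all in the same direction. A further 28 were called in H2Av RNAi alone and 11 in lacZ RNAi alone. Among the 16732 probes, 2927 were called in lacZ RNAi and 3601 in H2Av RNAi. Of these, 2139 were called in both in the same direction and 12 in opposite directions. A further 1450 were called in H2Av RNAi alone and 776 in lacZ RNAi alone. A call in 1 RNAi group alone does not show that the groups differed.

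*CG34112*, *CG7384* and *CR14798* were the named genes with the largest rise at low temperature in lacZ RNAi. *CG34112* had 10.15, 10.11 and 9.93 at 14 °C and 7.14, 8.41 and 7.93 at 30 °C in lacZ RNAi. In H2Av RNAi it had 7.52, 8.02 and 8.15 at 14 °C and 5.36, 5.72 and 5.87 at 30 °C. It rose at 14 °C by 2.24 ± 0.33 (SE, adjusted p = 0.000153) and 2.25 ± 0.33 (adjusted p = 0.000116), although the level after depletion was about that of the control at the higher temperature. *CG7384* had 10.97, 10.97 and 10.85 at 14 °C and 8.38, 9.09 and 8.96 at 30 °C in lacZ RNAi. It rose by 2.12 ± 0.24 (adjusted p = 2.03e-05) in lacZ RNAi and 1.86 ± 0.24 (adjusted p = 4.74e-05) in H2Av RNAi, and *CR14798* by 1.81 ± 0.41 (adjusted p = 0.00377) and 1.89 ± 0.41 (adjusted p = 0.00229).

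*Ude* was the member with the largest rise at 14 °C in H2Av RNAi. There it had 11.73, 11.38 and 11.24 at 14 °C, then 9.88, 9.82 and 9.69 at 25 °C, then 8.94, 8.73 and 8.94 at 30 °C. In lacZ RNAi it had 12.68, 12.62 and 12.38, then 9.99, 11.40 and 11.73, then 11.00, 10.59 and 10.71. The H2Av values at 14 °C thus overlapped the lacZ values at 25 °C. The change from 30 to 14 °C was 2.58 ± 0.32 (adjusted p = 3.27e-05) in H2Av RNAi and 1.79 ± 0.32 (adjusted p = 0.000768) in lacZ RNAi. That from 25 to 14 °C in lacZ RNAi, 1.52 ± 0.32 (adjusted p = 0.00491), was 0.99 without replicate 1 of lacZ RNAi at 25 °C and was then no longer called. *CG15056* rose at 14 against 30 °C by 2.21 ± 0.35 (adjusted p = 0.000248) in H2Av RNAi.

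Low temperature lowered other members in both RNAi groups. *CG4570* had 9.78, 9.70 and 10.06 at 14 °C, 12.17 ± 0.15 (SD, n = 3) at 25 °C, and 12.39, 13.12 and 13.04 at 30 °C in lacZ RNAi. In H2Av RNAi it had 8.06, 8.89 and 8.78, then 9.75, 9.73 and 9.86, then 10.54, 10.88 and 11.11. The order of the temperatures was the same in both, and the change from 30 to 14 °C was -3.003 ± 0.24 (adjusted p = 1.1e-06) and -2.27 ± 0.24 (adjusted p = 8.14e-06). *CG14868* had 8.78, 8.95 and 8.68 at 14 °C and 10.62, 10.97 and 11.22 at 30 °C in lacZ RNAi, without overlap, and in H2Av RNAi it had 6.49, 7.55 and 7.44 against 8.44, 8.80 and 8.47. It fell by 2.14 ± 0.28 (adjusted p = 5.41e-05) in lacZ RNAi, and in H2Av RNAi the change was -1.41 ± 0.28 (adjusted p = 0.00115). On the dimmer probe of *CG3397* the change was -1.98 ± 0.37 (adjusted p = 0.00101) in lacZ RNAi and -2.11 ± 0.37 (adjusted p = 0.000508) in H2Av RNAi, and its brighter probe had -1.51 ± 0.38 (adjusted p = 0.00736) and -1.08 ± 0.38 (adjusted p = 0.0357).

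The glutathione S-transferases moved in opposite directions with temperature. *GstS1* had 8.74, 8.30 and 8.93 at 14 °C and 9.89, 9.86 and 9.88 at 30 °C in lacZ RNAi on its dimmer member probe, and 6.76, 6.71 and 5.99 at 14 °C and 8.65, 8.67 and 8.55 at 30 °C in H2Av RNAi. It was lower at 14 °C by -2.14 ± 0.22 (adjusted p = 7.16e-06) in H2Av RNAi and by -1.22 ± 0.22 (adjusted p = 0.000821) in lacZ RNAi. On the other member probe the change was -1.25 (adjusted p = 0.000469) in H2Av RNAi and -0.80 (adjusted p = 0.0112) in lacZ RNAi, which was under 2-fold. *GstE13* was higher at 14 °C in H2Av RNAi, by 1.60 ± 0.22 (adjusted p = 6.25e-05), and in lacZ RNAi its change was 0.67 ± 0.22 (adjusted p = 0.0291), under 2-fold.

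Among the leading members, *trk* rose at 14 against 30 °C in H2Av RNAi by 1.93 ± 0.22 (adjusted p = 1.54e-05) and 1.82 ± 0.22 (adjusted p = 2.19e-05) on its 2 probes, and *Hexo1* by 1.33 ± 0.24 (adjusted p = 0.00056). In lacZ RNAi the changes of the same probes were 0.91 and 0.84 for *trk* and 0.31 for *Hexo1*, all under 2-fold. *Ptth* in lacZ RNAi changed by -1.001 ± 0.30 (adjusted p = 0.0273) at 14 against 25 °C, which rested on replicate 1 of 25 °C. Without this array the change was -0.63 ± 0.25 (adjusted p = 0.108) and was no longer called. The adjacent *Coq3* and *Pld3* were both higher at 14 than at 30 °C in H2Av RNAi, by 1.72 (adjusted p = 7.27e-06) and 1.36 (adjusted p = 0.000183). *HDAC11* in H2Av RNAi was 3.29-fold lower at 30 than at 25 °C with the floor described above. This is no firm limit, because no array at 30 °C was well above background. Its call (adjusted p = 0.0119) was lost with the authors' values (adjusted p = 0.208).

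For 14 against 30 °C, the temperature change of the lacZ groups was also subtracted from that of the H2Av groups. It equals the difference between the RNAi effects at 14 and 30 °C, both of which the rule had used, so it is given as a description. The median over the members was 0.29, beside -0.04 over the 16732 probes, and it was above 0 in 100 members and below 0 in 38. The highest value, 2.62, was that of a probe designed to the sequence record AF080266, to which no gene symbol could be assigned.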

How the data were processed

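Transcript levels were measured on 18 one-colour Agilent arrays. The deposited scanner files held intensity values that the authors had extracted with Feature Extraction 10.7.3.1, per the file headers, with flags of other kinds (well above background, outlier). The authors' quantile-normalized log2 values came as a deposited matrix, and the signal behind it was not given in the sources used here. By rank it resembled the median signal (Spearman 0.986 to 0.997 per array) more than the processed signal (0.968 to 0.987). No column of values was left unused.

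Members were chosen on this matrix, averaged over the spots of a probe, with the threshold of -1. The members and lists were chosen with earlier results of these data known. For all other values, log2 of the processed signal was quantile-normalized over 43603 non-control spots with limma 3.58.1 (R 4.3.3), outlier spots (42 to 78 per array) were left out, and the median over spots was taken. The fit used 6 group means and 21775 probes well above background on at least 2 of 3 arrays of a group, with two-sided tests and Benjamini-Hochberg adjustment over all of them. It was tested on simulated data. Precision is limited by the 3 arrays per group.

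Genes were named by a rule: the 10 brightest members with a symbol and the 10 with a symbol and the largest difference, the 3 largest calls per direction and comparison, genes with 2 member probes, members on a list and those at the threshold. Others, and the groups by function, were chosen after their values were seen. Symbols were matched through a RefSeq table of a later genome build for 19488 of 32162 probes, and that table's coordinates served only to order neighbours. Marker and neighbour values use the probe with the highest mean signal of a gene. For the marker counts, not every spot of a probe had to be well above background on an array, whereas the lists needed every spot. Sequences and motifs were not analysed here.

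Same-numbered replicates deviated together in the comparison of 14 with 30 °C in lacZ RNAi (correlations 0.19 to 0.25) and in all 3 comparisons in H2Av RNAi (0.11 to 0.46). In lacZ RNAi the correlations were 0.21, 0.06 and 0.1 for 14 with 25 °C. For 30 with 25 °C they were -0.27, -0.47 and 0.29. Alternatives were scaling to the 75th percentile, normexp on median signals (offset 50), the deposited matrix, other filters, the compared arrays alone, array quality weights, the replicate number as a block and leaving out each array. Leaving lacZ RNAi 25 °C replicate 1 out of the values at 25 °C was added after seeing the data.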

Additional observations from a re-analysis of the deposited data

Results flagged for a closer look

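A probe of the sequence record AF080266 had the highest difference between its temperature changes, those from 30 to 14 °C, in the RNAi groups, with 2.62 ± 0.44 (SE, log2) in H2Av minus lacZ RNAi. This value is made of the RNAi differences at 14 and 30 °C, which the rule had used to choose the members, so it is given as a description. Its lacZ signals were 8.53, 7.99 and 8.36 at 14 °C and 9.01, 9.97 and 8.74 at 30 °C, a change of -0.94. Its H2Av signals were 6.44, 6.53 and 6.91 at 14 °C and 4.85, 4.75 and 5.24 at 30 °C, a change of 1.68. In H2Av RNAi at 25 °C it had 6.97, 6.82 and 7.29, which overlapped the values at 14 °C and lay above those at 30 °C. The value was 1.60 with normexp and 1.76 with the authors' values, and lay between 2.25 and 2.87 when any 1 of the compared arrays was left out.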

How the results depend on the processing

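With the rule applied to the processed signals after quantile normalization, 255 probes met it, 136 of them members. The 75th percentile scaling gave 165 (128 shared), normexp 125 (all members) and a threshold of -1.5 gave 46. Leaving out 1 array gave 129 to 162. Median differences of the members ranged from -1.34 to -1.63 (14 °C), from -1.83 to -2.13 (25 °C) and from -1.67 to -1.99 (30 °C). With the compared arrays alone, 13 members were called for 14 against 25 °C and 0 for 30 against 25 °C in lacZ RNAi, where single arrays gave 11 to 30 and 7 to 33. In H2Av RNAi, normexp gave 3 for 14 against 25 °C and 9 for 30 against 25 °C, array weights 10 and 26, and single arrays 5 to 9 and 12 to 19. For 14 against 30 °C single arrays gave 23 to 32 in lacZ RNAi and 42 to 52 in H2Av RNAi. For the difference of the temperature responses, a description since the rule had used the RNAi differences behind it, 1 member passed the limits, and normexp, the deposited matrix and the compared arrays alone gave 3 each, the filter on all 18 arrays 2, array weights 19 and single arrays 0 to 2. The replicate block gave 2 there, and 28, 23, 21, 45, 9 and 22 in the 6 temperature comparisons in the order lacZ RNAi (14 against 30, 14 against 25, 30 against 25 °C), then H2Av RNAi, and removed no call of a named member. The 30 named changes were temperature changes and, as a description, the value of the AF080266 probe between the RNAi groups. None of the 30 reversed under any alternative, 18 kept their call under every one and 12 lost it under at least 1. The cause was not tested. Dim probes such as *HDAC11* and *CG15142* are limited by signal over background.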
